A study of Mus musculus with 18 samples.

Results

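The 9 genes described here belong to the death receptor pathway of mouse B cells: the receptor Fas, the adaptor Fadd, the caspases Casp8 and Casp6, the caspase 8 inhibitor Cflar, the kinase Ripk1, the caspase inhibitor Xiap, and the receptor adaptors Traf1 and Traf5. They were taken by name from a list, chosen with earlier results of these data known, and mapped by symbol to Ensembl gene IDs. Shares of members set beside those of all tested genes below are therefore descriptions. All 9 were among the 35275 genes of the deposited expression table, and all 9 were among the 11646 genes whose level was high enough to be tested, a mean of at least 1 FPKM. FPKM counts sequenced fragments per 1000 bases of a gene and per M (mega) fragments of a library. It accounts for the length of a gene and the depth of a library, but not for other differences between libraries.

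The cells were pan B cells isolated from spleens of C57BL/6 mice. The labels name no genetic change, age or number of animals. Cells spent 1 h with 1000 ng/ml of either a control antibody or mBaffR-mFc, a reagent that blocks the part of the cytokine BAFF to which its receptor BR3 binds. They were then kept for 4 h without BAFF, with 100 ng/ml BAFF 3mer or with 100 ng/ml BAFF 60mer, the forms with 3 and 60 subunits. This gave 6 groups of 3 RNA-seq libraries, called here no BAFF, 3mer and 60mer under each pretreatment. Replicate numbers follow the order of deposition. The p-values below measure only the spread between these libraries, since the labels do not say that replicates came from separate animals.

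Death receptors are surface proteins of the TNF receptor family. Fas, once bound by its ligand, recruits Fadd, which brings together molecules of the initiator caspase Casp8; these activate each other and then cut the executioner caspases. Cflar (c-FLIP) resembles Casp8 but lacks its protease activity, and Xiap binds some of the executioner caspases and holds them inactive. Ripk1 and the TRAF proteins work in the branch of TNF receptor signalling that leads to NF-kB and MAP kinases, and Traf1 is itself a known NF-kB target gene. BAFF is a survival factor of mature B cells, and BR3 is the receptor through which it keeps follicular B cells alive.

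The libraries held 12.2 to 25.4 M fragments, as recovered from the steps between low FPKM values. The 60mer group under control antibody was the least deeply sequenced, with a mean of 14.9 M, and its replicate 1 held the fewest. The 6 B cell markers were present in every library, with a summed level of 2485 to 2891 FPKM. Under control antibody their sum was 2544 to 2668 FPKM with 60mer and 2733 to 2844 FPKM untreated. Under mBaffR-mFc the sums were 2485 to 2665 FPKM with 60mer and 2650 to 2848 FPKM untreated, which overlapped. With 3mer they were 2638 to 2815 FPKM under control antibody and 2617 to 2891 FPKM under mBaffR-mFc, each overlapping the range with 60mer. Transcripts of 6 connective tissue genes, typical of fibroblasts, summed to 8.14 to 12.9 FPKM in 8 libraries and to at most 0.131 FPKM in the other 10. Those 8 were all 3 of each 60mer group and replicates 1 and 2 of the 3mer group under control antibody. Each comparison of 60mer with no BAFF therefore runs wholly across this split, as does 60mer against 3mer under mBaffR-mFc, and in them the BAFF form and the presence of these transcripts cannot be told apart. In 60mer against 3mer under control antibody, both groups include libraries with these transcripts. The summed level of 6 dendritic cell genes also was 17.9 to 22.6 FPKM in the 60mer libraries and 12.8 to 15.5 FPKM in all others, mostly from Zbtb46 (8.68 to 18.1 FPKM over all libraries). Of the same list, Itgax was at 1.32 to 2.57 FPKM and Flt3 at 1.14 to 1.93 FPKM, while Xcr1 reached at most 0.116 FPKM and Clec9a at most 0.211 FPKM. The summed level of 4 plasma cell genes was 125 to 141 FPKM in the 60mer libraries and 140 to 164 FPKM in the others. Sums of 6 NK cell genes under control antibody were 92.5 to 93.3 FPKM with 60mer. They were 95.6 to 100.4 FPKM with 3mer there and 104 to 114 FPKM untreated. Under mBaffR-mFc they were 98.5 to 103 FPKM with 60mer and 107 to 118 FPKM with 3mer. The untreated range there, 97.0 to 114 FPKM, overlapped that with 60mer. Sums of 4 platelet genes under control antibody were 16.2 to 17.5 FPKM with 60mer and 17.96 to 23.6 FPKM untreated. With 3mer they were 15.6 to 22.3 FPKM there, a range that included that with 60mer. Under mBaffR-mFc they were 15.9 to 17.2 FPKM with 60mer and 18.2 to 20.6 FPKM with 3mer. The untreated platelet range there, 16.2 to 21.8 FPKM, overlapped that with 60mer. Over all libraries, 6 monocyte and macrophage genes summed to 135 to 161 FPKM, mostly from Lyz2 (95.6 to 120 FPKM). Sums were 41.7 to 52.9 FPKM for 6 T cell genes, mostly Lck (39.5 to 49.8 FPKM), and 16.3 to 30.6 FPKM for 5 neutrophil genes. The ranges of these lists with 60mer overlapped those untreated and with 3mer, except T cell genes under control antibody (42.95 to 45.98 FPKM with 60mer, 46.46 to 50.92 FPKM with 3mer). The level of the connective tissue transcripts was used as a further term in some fits below. The part of the other transcripts in the results below was not tested. In these bulk libraries fewer cells of a type and less RNA per cell cannot be told apart.

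Cflar was the most abundant member, with 101.7 ± 6.53 FPKM (mean ± SD of 18 libraries). It was followed by Traf1 with 63.9 ± 7.82 FPKM, Xiap with 53.0 ± 2.74 FPKM and Casp8 with 44.5 ± 3.42 FPKM. Traf5 and Casp6 came next, and their ranges over the libraries overlapped, as did those of Traf1 and Xiap and of Xiap and Casp8. Ripk1 reached 10.95 to 13.8 FPKM, Fas 5.03 to 10.1 FPKM and Fadd 3.11 to 3.95 FPKM. The receptor and the adaptor that start the pathway were thus the least abundant of the 9 transcripts. Fas and Fadd rested on 186 to 271 and 175 to 391 fragments a library, counted over the joint exon length of each gene, and the other members on at least 1225. The residual SD between replicates, on the log2(FPKM + 1) scale used for all tests, was 0.19 for Fas, 0.05 for Cflar and 0.09 for the median tested gene.

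Casp8 and Cflar lie beside each other on mouse chromosome 1 in the same orientation, at chr1:58795374-58847503 and chr1:58711508-58758884 (GENCODE M21, GRCm38, whole gene; the build behind the deposited values is not given in the sources used here). Traf5 lies on the same chromosome at chr1:191997205-192092559 on the minus strand. Traf1 lies at chr2:34941750-34961772 on the minus strand and Casp6 at chr3:129901425-129914103. Fas lies at chr19:34290666-34327772, Fadd at chr7:144577318-144582463, Ripk1 at chr13:34002363-34037147 and Xiap at chrX:42059679-42109656. For the members with the largest changes after BAFF 60mer, the 250 bases before the RefSeq start (GRCm38.p6) are printed 5′ to 3′ on the gene's strand: Traf1 and Traf5, which moved in opposite directions, and Casp6. The windows are chr2:34961773-34962022 (minus strand), chr1:192092600-192092849 (minus strand) and chr3:129901165-129901414 (plus strand). Bases just after the RefSeq start were found in a GENCODE transcript for Traf1 and Casp6 but not for Traf5. The RefSeq start of Traf5 lies outside the GENCODE span given above, as does that of Cflar, whose window is not printed. Capitals mark every match to a wide form of the NF-kB binding site, GGGNNNNNCC.
Traf1: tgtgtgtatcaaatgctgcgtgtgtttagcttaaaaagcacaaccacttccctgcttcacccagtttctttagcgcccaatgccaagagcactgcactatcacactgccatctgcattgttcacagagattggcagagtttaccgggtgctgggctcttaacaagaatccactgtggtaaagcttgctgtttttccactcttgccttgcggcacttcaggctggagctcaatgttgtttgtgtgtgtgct
Traf5: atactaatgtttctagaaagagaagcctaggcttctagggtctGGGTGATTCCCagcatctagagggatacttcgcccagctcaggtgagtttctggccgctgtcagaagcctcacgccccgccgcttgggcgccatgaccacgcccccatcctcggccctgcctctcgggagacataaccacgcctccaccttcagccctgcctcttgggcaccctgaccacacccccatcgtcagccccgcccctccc
Casp6: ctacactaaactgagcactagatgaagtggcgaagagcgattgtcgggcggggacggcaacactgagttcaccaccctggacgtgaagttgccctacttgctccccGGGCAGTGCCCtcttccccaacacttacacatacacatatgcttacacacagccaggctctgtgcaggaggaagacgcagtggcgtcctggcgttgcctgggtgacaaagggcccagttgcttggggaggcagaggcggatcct
Both strands were searched, and the 2 matches of Traf5, which begin 207 and 206 bases before the start, overlap each other on opposite strands, as do those of Casp6 at 144 and 143 bases. Traf1 held no match in its window. Of the 12 windows of the 9 members, 5 held the wide form, against 45.8% of all 32851 windows, and 0 held the stricter kappaB consensus, against 7.25% of all windows. Cflar, Casp8 and Fadd held neither form. A match is a description of these letters, and its absence concerns these windows only.

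**Figure D1:**
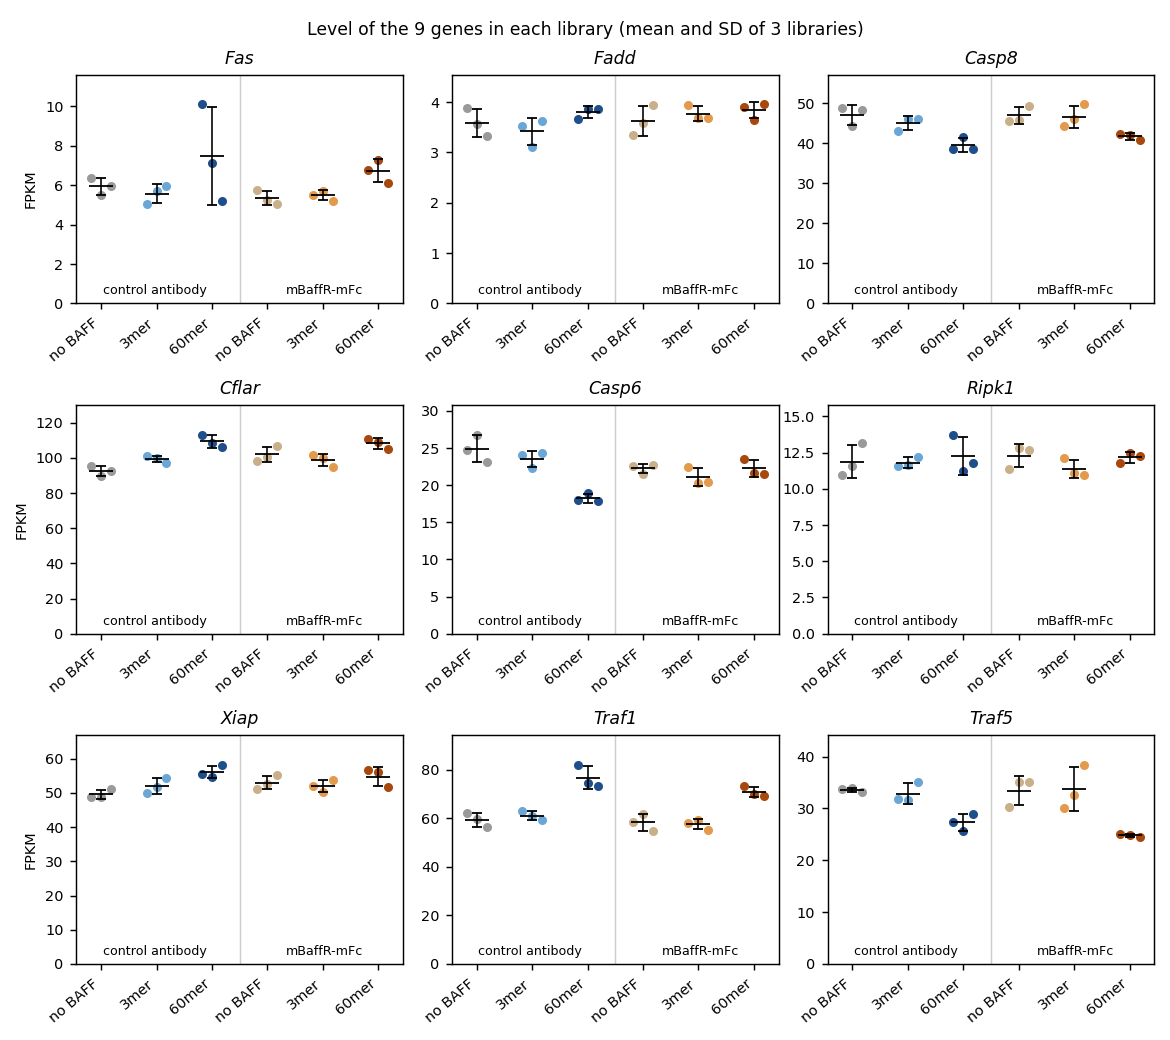
Level of each of the 9 genes in every library (FPKM, linear axis from 0) by group, with the mean and SD of 3 libraries. Traf1 stands at 69.2 to 82.0 FPKM in the 6 libraries with BAFF 60mer and at 54.6 to 62.9 FPKM in the other 12, while Casp6 is at 17.9 to 19.0 FPKM only in the 60mer group under control antibody.

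Under control antibody, BAFF 60mer was followed by higher transcript levels of Traf1, Cflar and Xiap and by lower levels of Casp6, Casp8 and Traf5, so that 6 of 9 members passed the test, 3 in each direction. Over all tested genes 14% passed in this comparison, 5.04% higher and 8.94% lower. The largest fall was that of Casp6 and the largest rise that of Traf1, by 25.6% and 28.5% on the scale of FPKM + 1. Fas, Fadd and Ripk1 did not pass. The median log2 difference was 0.07 over the 9 members and -0.02 over all tested genes.

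Fas, the receptor, was at 6.35, 5.51 and 5.94 FPKM without BAFF and at 10.1, 7.13 and 5.18 FPKM with BAFF 60mer. The groups overlapped, because replicate 1 of the 60mer group was the highest and replicate 3 lower than all 3 untreated libraries. The log2 difference was 0.25 ± 0.14 (SE), with a 95% confidence interval of -0.05 to 0.55 and an adjusted p of 0.253 (limma, Benjamini-Hochberg over all tested genes, as for every adjusted p below). Single libraries of the 60mer group decided this value: Fas differed by 0.03 without replicate 1 (adjusted p = 0.889) and by 0.46 without replicate 3 (adjusted p = 0.0169). Fadd, the adaptor, was at 3.32 to 3.89 FPKM without BAFF and at 3.67 to 3.87 FPKM with 60mer, overlapping groups that differed by 0.07 ± 0.08 (log2).

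Casp8, the initiator caspase, was at 48.7, 44.2 and 48.2 FPKM without BAFF and at 38.5, 41.5 and 38.6 FPKM with 60mer. All 3 treated libraries lay below all 3 untreated ones. Casp8 fell by 0.24 ± 0.05 on the log2 scale (adjusted p = 0.007). Casp6, an executioner caspase, was at 24.7, 26.8 and 23.2 FPKM without BAFF and at 17.9, 19.0 and 17.9 FPKM with 60mer. The 2 ranges lay more than 4 FPKM apart, and no library of any other group was as low as these 3. Casp6 fell by 0.43 ± 0.06 on the log2 scale (adjusted p = 0.000322).

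Among the inhibitors, Cflar was at 95.3, 89.8 and 92.8 FPKM without BAFF and at 113, 109 and 106 FPKM with 60mer. The groups did not overlap, and Cflar rose by 0.24 ± 0.04 (log2, adjusted p = 0.00195). Xiap was at 49.0, 48.9 and 51.1 FPKM without BAFF and at 55.6, 54.7 and 58.3 FPKM with 60mer. These groups did not overlap either, and Xiap rose by 0.18 ± 0.05 (log2, adjusted p = 0.0213). The Xiap call rested on single libraries: its adjusted p was 0.0737 without replicate 1 and 0.0709 without replicate 2 of the untreated group, and 0.0544 without replicate 1 and 0.0665 without replicate 3 of the 60mer group.

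Of the signalling members, Ripk1 was at 10.95 to 13.2 FPKM without BAFF and at 11.3 to 13.8 FPKM with 60mer, overlapping groups with a log2 difference of 0.04 ± 0.08. Traf1, which binds TRAF2 and the cellular inhibitors of apoptosis, was at 62.1, 59.7 and 56.3 FPKM without BAFF and at 82.0, 74.7 and 73.2 FPKM with 60mer. All 3 treated libraries were higher, and Traf1 rose by 0.36 ± 0.05 (log2, adjusted p = 0.000502). Traf5, an adaptor of CD40 and other TNF family receptors, was at 33.8, 33.9 and 33.1 FPKM without BAFF and at 27.3, 25.7 and 28.9 FPKM with 60mer. Traf5 thus moved against Traf1: it fell by 0.29 ± 0.08 on the log2 scale (adjusted p = 0.0188). Its adjusted p was 0.0598 without replicate 1 and 0.0564 without replicate 2 of the untreated group, and 0.0567 without replicate 1 and 0.0782 without replicate 2 of the 60mer group.

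Groups that did not overlap were counted for 6 of 9 members here, against 32.7% of all tested genes. With the level of the connective tissue transcripts as a further term in the fit, standard errors grew and 0 of the 9 members passed: the log2 differences were then 0.30 ± 0.09 for Traf1 (adjusted p = 0.25) and -0.35 ± 0.10 for Casp6 (adjusted p = 0.229).

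**Figure D2:**
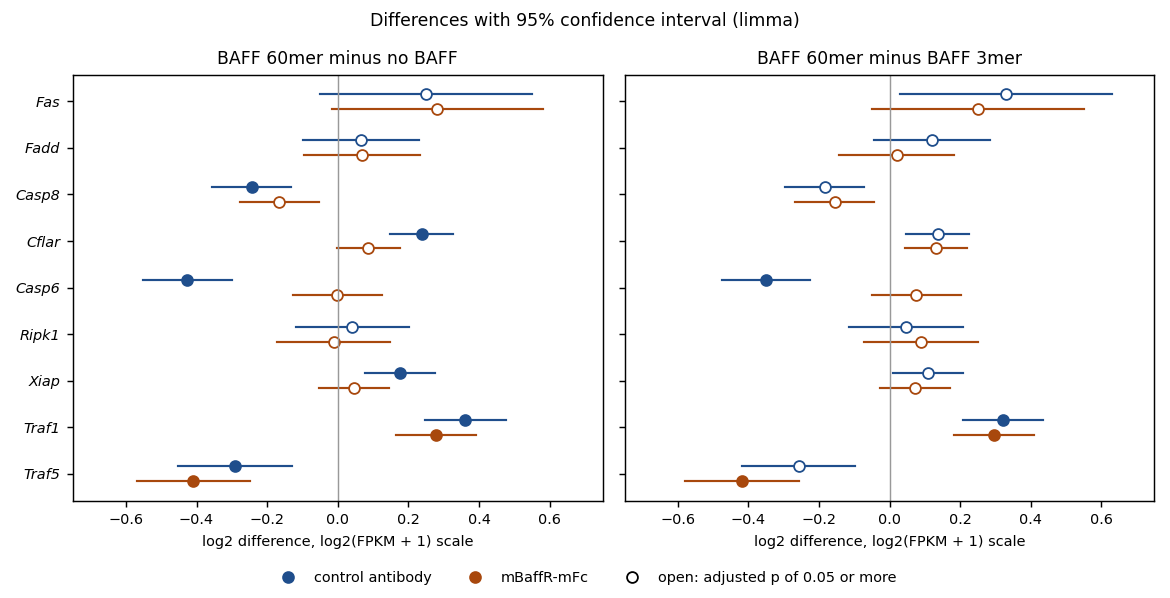
Log2 difference of each member after BAFF 60mer against no BAFF (left) and against BAFF 3mer (right), with its 95% confidence interval from limma; blue is control antibody, orange mBaffR-mFc, and open points have an adjusted p of 0.05 or more. Traf1 lies above 0 and Traf5 below 0 in all 4 comparisons, and Casp6 lies below -0.3 under control antibody only.

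BAFF 3mer at the same dose and time allows the forms of the cytokine to be compared. Under control antibody, 2 of 9 members differed between 60mer and 3mer, Traf1 (higher) and Casp6 (lower), where 4.81% of all tested genes did. Traf1 was at 62.9, 61.0 and 59.3 FPKM with 3mer, below each 60mer library named above, and was higher with 60mer by 0.32 ± 0.05 (log2, adjusted p = 0.00225). Casp6 was at 24.0, 22.3 and 24.3 FPKM with 3mer, above each 60mer library, and was lower with 60mer by a log2 difference of -0.35 ± 0.06 (adjusted p = 0.00239). This comparison shares its 60mer libraries with the preceding one, so its values do not add separate evidence on them.

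Groups did not overlap for 7 of 9 members between 60mer and 3mer, against 23.9% of tested genes, although most of these did not pass. Casp8 differed by -0.18 ± 0.05 (log2, adjusted p = 0.058), Traf5 by -0.26 ± 0.08 (adjusted p = 0.062) and Cflar by 0.14 ± 0.04 (adjusted p = 0.0772). Casp8 was the closest to the threshold and passed with median-of-ratios scaling (adjusted p = 0.0456) and with a minimum mean of 5 FPKM (adjusted p = 0.0487). Xiap differed by 0.11 ± 0.05 (adjusted p = 0.2) and Fas by 0.33 ± 0.14 (adjusted p = 0.199), the latter passing without replicate 3 of the 60mer group (0.54, adjusted p = 0.0164) and standing at 0.12 without replicate 1 (adjusted p = 0.678). With the connective tissue term, Traf1 differed by 0.30 ± 0.06 (adjusted p = 0.00863) and Casp6 by -0.33 ± 0.06 (adjusted p = 0.00885), and both still passed. Without replicate 3 of the 3mer group, so that all libraries compared held those transcripts, Traf1 differed by 0.30 ± 0.06 (adjusted p = 0.0158) and Casp6 by -0.33 ± 0.07 (adjusted p = 0.0165).

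Against no BAFF, BAFF 3mer moved none of the members past the threshold. Of the 9 members and of all tested genes 0 passed under either pretreatment (0.0%); at an unadjusted p under 0.05, limma gave 1 member and 632 genes (5.43%) under control antibody, and 0 members and 3.33% of genes under mBaffR-mFc. The member was Cflar, at 101, 100.0 and 97.3 FPKM with 3mer, all above the untreated libraries, with a log2 difference of 0.10 ± 0.04 (adjusted p = 0.881). Under mBaffR-mFc the 3mer and untreated groups overlapped for all 9 members, while 9.19% of tested genes had groups that did not. The 95% confidence intervals of the 3mer differences reached from -0.07 to 0.15 for Traf1, from -0.20 to 0.05 for Casp6 and from -0.19 to 0.13 for Traf5 under control antibody. A change as large as that of Traf1 or Casp6 after 60mer lay outside these intervals.

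Pretreatment with mBaffR-mFc was used in the study to block BR3 binding on BAFF. Under it, BAFF 60mer was still followed by higher Traf1 and lower Traf5, and 2 of 9 members passed against no BAFF, where 4.83% of tested genes did. Traf1 was at 58.4, 61.9 and 54.6 FPKM without BAFF and at 73.1, 70.1 and 69.2 FPKM with 60mer. No library overlapped, and Traf1 rose by 0.28 ± 0.05 (log2, adjusted p = 0.0061). With only these 2 groups in the fit, the same difference had an adjusted p of 0.0637. Traf5 was at 30.2, 35.1 and 35.0 FPKM without BAFF and at 25.2, 24.9 and 24.6 FPKM with 60mer. The 3 treated libraries lay within 1 FPKM of each other and below all others, and Traf5 fell by 0.41 ± 0.08 on the log2 scale (adjusted p = 0.00464).

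Against BAFF 3mer under mBaffR-mFc, 2 of 9 members passed again, with 5.16% of tested genes. Traf1 was at 58.1, 59.2 and 55.2 FPKM with 3mer and was higher with 60mer by 0.30 ± 0.05 (log2, adjusted p = 0.0039). Traf5 was at 30.1, 32.7 and 38.4 FPKM with 3mer, the widest spread of this gene in any group, and was lower with 60mer by a log2 difference of -0.42 ± 0.08 (adjusted p = 0.00381). Neither gene's groups overlapped; groups did not overlap for 5 of 9 members here and for 4 of 9 against no BAFF, beside 24.2% and 20.5% of tested genes. With the connective tissue term 0 members passed in either comparison.

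Against no BAFF, the caspases and inhibitors had smaller differences under mBaffR-mFc than under control antibody, without a passing interaction. Against 3mer, the log2 differences under mBaffR-mFc and control antibody were 0.13 and 0.14 for Cflar and -0.16 and -0.18 for Casp8. They were 0.07 and 0.11 for Xiap and 0.08 and -0.35 for Casp6. Casp8 was at 45.6, 45.9 and 49.3 FPKM without BAFF and at 42.3, 42.1 and 40.7 FPKM with 60mer, groups that did not overlap, with a log2 difference of -0.17 ± 0.05 (adjusted p = 0.0887). Cflar was at 98.5, 100.5 and 107 FPKM without BAFF and at 111, 109 and 105 FPKM with 60mer, overlapping groups that differed by 0.09 ± 0.04 (adjusted p = 0.281). Xiap differed by 0.05 ± 0.05 and Fas by 0.28 ± 0.14 (adjusted p = 0.3). The 3 Fas libraries with 60mer, at 6.76, 7.29 and 6.12 FPKM, were all above the untreated ones at 5.75, 5.24 and 5.05 FPKM. Fadd and Ripk1 differed by 0.07 and -0.01, and their groups overlapped.

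Casp6 stood apart from the other members between the pretreatments. Under mBaffR-mFc it was at 22.6, 21.5 and 22.7 FPKM without BAFF and at 23.6, 21.7 and 21.5 FPKM with 60mer, a log2 difference of -0.001 ± 0.059 (95% interval -0.13 to 0.12). In the 60mer groups themselves it was higher with mBaffR-mFc than with control antibody by 0.27 ± 0.06 (log2), all 3 libraries above all 3, but with an adjusted p of 0.237. In that comparison 0 members and 0.0258% of tested genes passed. The test of the difference between the 60mer changes gave 0.42 ± 0.08 for Casp6 (95% interval 0.25 to 0.60, adjusted p = 0.407), the smallest adjusted p of the 9 members. Casp6 thus failed the adjustment over all genes, where 0.00859% of tested genes and 0 members passed, and its changes under the 2 pretreatments are not shown to differ. Leaving out each library in turn gave 0.37 to 0.47 for this value, with adjusted p from 0.233 to 0.994. It was 0.43 ± 0.08 with the connective tissue term. Those transcripts summed to 8.14 to 10.6 FPKM with 60mer under control antibody and to 9.79 to 10.7 FPKM with 60mer under mBaffR-mFc. In both untreated groups they reached at most 0.057 FPKM. The term could therefore hardly move this value, which does not test their part in it.

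For the other members the same interaction was smaller: -0.15 ± 0.06 for Cflar (adjusted p = 0.896), -0.13 ± 0.07 for Xiap, -0.12 ± 0.11 for Traf5, -0.08 ± 0.08 for Traf1 and 0.08 ± 0.08 for Casp8. The 95% intervals were -0.24 to 0.08 for Traf1 and -0.35 to 0.11 for Traf5, and include 0 as well as a smaller Traf1 change and a larger Traf5 change under mBaffR-mFc. Traf1 in the 60mer groups was at 69.2 to 73.1 FPKM with mBaffR-mFc and at 73.2 to 82.0 FPKM with control antibody, a log2 difference of -0.11 ± 0.05 (adjusted p = 0.993).

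Without BAFF, the pretreatments differed in 0 of 9 members, and in 0 of all tested genes (0.0%), by limma's adjusted p; at an unadjusted p under 0.05 there were 2 members and 5.91% of genes. Cflar was higher with mBaffR-mFc, at 98.5 to 107 FPKM against 89.8 to 95.3 FPKM, by 0.14 ± 0.04 (log2, adjusted p = 0.829). Casp6 was lower, at 21.5 to 22.7 FPKM against 23.2 to 26.8 FPKM, by a log2 difference of -0.15 ± 0.06 (adjusted p = 0.829). For both genes the untreated level under mBaffR-mFc thus lay between the untreated and the 60mer level under control antibody, and it enters their interaction values. With BAFF 3mer present the pretreatments again differed in 0 members and 0 genes at an adjusted p under 0.05. Casp6 differed by -0.15 ± 0.06 (adjusted p = 0.998), and it was the 1 member under 0.05 before adjustment, as were 3.88% of genes.

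Over the 6 groups together, 5 of 9 members passed limma's F test, beside 8.93% of tested genes. These were Traf1 (adjusted p = 0.000267), Casp6 (0.00225), Traf5 (0.00271), Cflar (0.0082) and Casp8 (0.0167). Casp8 did not pass without replicate 1 (adjusted p = 0.0677) or replicate 3 (0.0564) of the 60mer group under control antibody. Xiap had an adjusted p of 0.147 and Fas of 0.294, the latter 0.0224 without replicate 3 of that group. Fadd (0.739) and Ripk1 (0.867) were the members with the least variation between groups relative to their spread.

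In order of their means, Traf1 was highest in the 60mer groups, 76.6 ± 4.73 FPKM with control antibody and 70.8 ± 2.03 FPKM with mBaffR-mFc, and the other 4 groups had means between 57.5 and 61.1 FPKM. Of these 4, the 3mer groups did not overlap, at 55.2 to 59.2 FPKM with mBaffR-mFc and 59.3 to 62.9 FPKM with control antibody, with a difference of -0.09 ± 0.05 (log2, mBaffR-mFc minus control antibody, adjusted p = 0.998). Traf5 was lowest in the same groups, at 24.9 ± 0.29 FPKM with mBaffR-mFc and 27.3 ± 1.63 FPKM with control antibody, and at 32.8 to 33.7 FPKM in the other 4. Casp8 followed this order too, with 39.5 ± 1.73 FPKM and 41.7 ± 0.87 FPKM in the 60mer groups and 45.01 to 47.01 FPKM elsewhere. Cflar had 109.4 ± 3.59 FPKM and 108.3 ± 2.96 FPKM in the 60mer groups, 98.8 to 102.0 FPKM in 3 groups and 92.6 ± 2.75 FPKM in untreated cells with control antibody. Casp6 alone had its single low group, 18.3 ± 0.62 FPKM, against 21.1 to 24.9 FPKM in the other 5.

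**Figure D3:**
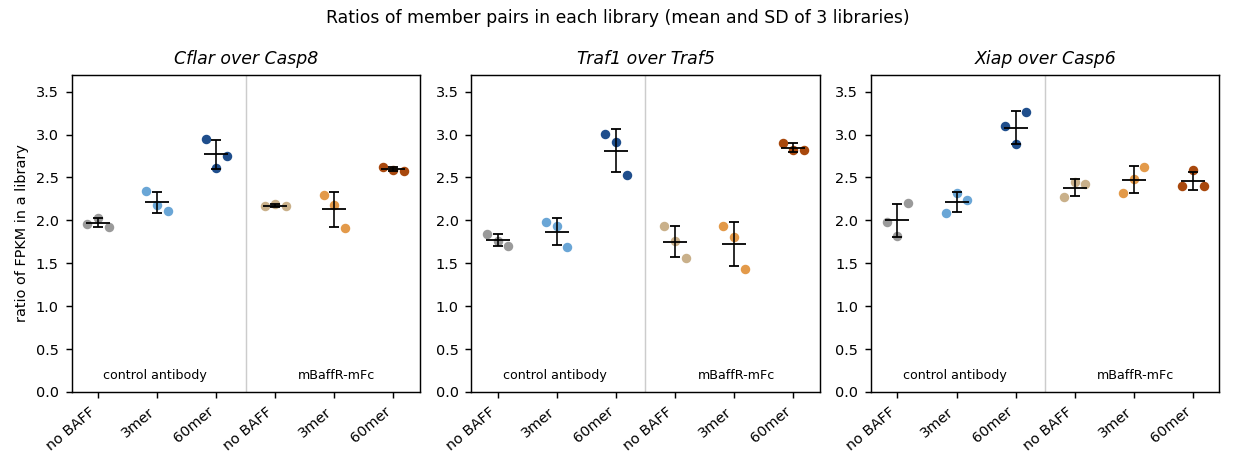
Ratio of the FPKM of member pairs in each library, with mean and SD of 3 libraries per group: Cflar over Casp8, Traf1 over Traf5, and Xiap over Casp6. The first 2 ratios are higher in both 60mer groups than in all other groups, and the last is higher in the 60mer group under control antibody only.

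Taken within a library, which cancels a common scale factor, the ratio of Cflar to Casp8 was higher in libraries with 60mer under both pretreatments. The ratio of Cflar to Casp8 was 1.97 ± 0.06 (SD, n = 3) in untreated cells, 2.21 ± 0.12 with 3mer and 2.77 ± 0.17 with 60mer under control antibody. Under mBaffR-mFc it was 2.17 ± 0.01, 2.13 ± 0.20 and 2.60 ± 0.02. The lowest 60mer library stood at 2.58 and the highest library of the other groups at 2.35. The ratio of Traf1 to Traf5 was 1.77 ± 0.07 untreated and 2.81 ± 0.25 with 60mer under control antibody, and 1.75 ± 0.19 and 2.85 ± 0.05 under mBaffR-mFc, without overlap. The ratio of Xiap to Casp6 was 2.002 ± 0.19 untreated and 3.08 ± 0.19 with 60mer under control antibody, but under mBaffR-mFc it was 2.38 ± 0.10 untreated, 2.48 ± 0.15 with 3mer and 2.46 ± 0.10 with 60mer, and these groups overlapped. These pairs were chosen with the members' values known, and the ratios are descriptions without a test. Xiap and Casp6 are not paired here as an inhibitor and its target.

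Of 59 further genes of the pathway in 5 lists, 53 were expressed highly enough to be tested. After 60mer under control antibody 7 of them rose, 4 fell and 42 did not pass, a share of 11 in 53 beside the 14% of all tested genes. Their median log2 difference was -0.04. Under mBaffR-mFc, 3 rose and 2 fell against no BAFF, and with 3mer 0 of 53 passed under either pretreatment. With the connective tissue term, 0 of the 11 and 0 of the 5 still passed, while against 3mer under control antibody Birc3 (0.32, adjusted p = 0.000203), Cd40 (0.46, adjusted p = 0.000829) and Traf3 (0.25, adjusted p = 0.0231) did.

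Of 5 ligand genes tested, 1 rose. Lta, which encodes lymphotoxin alpha, was at 6.04, 5.26 and 5.40 FPKM untreated and at 8.51, 7.09 and 6.98 FPKM with 60mer, a rise of 0.37 ± 0.10 (log2, adjusted p = 0.0266). It rose by 0.40 ± 0.10 under mBaffR-mFc (adjusted p = 0.0341). The Lta calls did not hold on fragments recovered from the FPKM steps, where the adjusted p was 0.0567 and 0.0677, and under control antibody its adjusted p was 0.0869 without replicate 2 and 0.0691 without replicate 3 of the untreated group and 0.127 without replicate 1 of the 60mer group. Under mBaffR-mFc it was 0.0904, 0.0582 and 0.0954 without replicate 1, 2 or 3 of the untreated group and 0.147 without replicate 1 of the 60mer group. Fasl, the ligand of Fas, was at a mean of 2.41 FPKM over all libraries and differed by -0.22 ± 0.11 (adjusted p = 0.184) under control antibody.

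Of 9 receptor genes tested, Cd40 rose, and Tnfrsf12a and Tnfrsf13b fell after 60mer under control antibody. Cd40, the receptor of T cell help on B cells, was at 65.5, 67.6 and 61.1 FPKM untreated and at 93.8, 78.5 and 87.3 FPKM with 60mer, and rose by 0.41 ± 0.06 (log2, adjusted p = 0.000454). Its rise under mBaffR-mFc was 0.35 ± 0.06 (adjusted p = 0.00287). Tnfrsf13b, which encodes the BAFF and APRIL receptor TACI, fell by 0.20 ± 0.04 on the log2 scale (adjusted p = 0.00525) and under mBaffR-mFc by 0.21 ± 0.04 (adjusted p = 0.00735, but 0.106 with only these 2 groups in the fit). Tnfrsf12a, the TWEAK receptor, fell by 0.36 ± 0.09 (adjusted p = 0.0131) but had an adjusted p of 0.0729 without replicate 1 of the untreated group and of 0.0645 and 0.0586 without replicate 1 or 2 of the 60mer group. Tnfrsf13c, which encodes BR3, passed under mBaffR-mFc, where it fell by 0.15 ± 0.04 (adjusted p = 0.038), and did not pass there with median-of-ratios scaling (adjusted p = 0.0954). Its adjusted p was 0.0846, 0.0647 and 0.12 without replicate 1, 2 or 3 of that untreated group, and 0.143 and 0.093 without replicate 1 or 3 of that 60mer group.

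Of 22 adaptor and receptor complex genes, Birc3, Tank and Traf3 rose and Sharpin and Traf7 fell. Birc3, the ubiquitin ligase cIAP2 that Traf1 and TRAF2 bind, was at 329.8, 327.1 and 329.7 FPKM untreated and at 417, 419 and 419 FPKM with 60mer. It rose by 0.35 ± 0.04 (log2, adjusted p = 2.8e-05) and by 0.33 ± 0.04 under mBaffR-mFc (adjusted p = 6.5e-05), and passed in both arms with every library left out in turn (largest adjusted p = 0.000853). Traf3, a negative regulator of BAFF receptor signalling, rose by 0.27 ± 0.05 (adjusted p = 0.00334), Tank by 0.31 ± 0.09 (adjusted p = 0.027), while Sharpin, a subunit of the linear ubiquitin ligase, fell by 0.26 ± 0.06 (adjusted p = 0.0104) and Traf7 by 0.15 ± 0.04 (adjusted p = 0.0195). The Tank call was lost without replicate 1 (adjusted p = 0.0593), 2 (0.0557) or 3 (0.0863) of the untreated group and without replicate 1 (0.114) or 2 (0.0868) of the 60mer group. Sharpin had an adjusted p of 0.0506 without replicate 2 of the 60mer group, and Traf7 of 0.0815 without replicate 1 of the untreated group and 0.0755 without replicate 1 of the 60mer group.

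None of the 6 other caspase genes tested passed in any comparison. The most abundant were Casp4, at a mean of 98.1 FPKM, with a log2 difference of 0.10 ± 0.11 after 60mer under control antibody, and Casp2, at 75.5 FPKM, with -0.15 ± 0.06 (adjusted p = 0.129). Casp9, the initiator caspase of the mitochondrial route, was picked out after its values were seen: it was at 20.6, 17.4 and 20.2 FPKM untreated and at 15.9, 16.96 and 14.5 FPKM with 60mer, and differed by -0.28 ± 0.09 (adjusted p = 0.0505). Of 11 execution and mitochondrial genes, Birc6 rose by 0.43 ± 0.11 (adjusted p = 0.0163) and Bid, which Casp8 cleaves, by 0.19 ± 0.06 (adjusted p = 0.0405), and 0 of 11 passed under mBaffR-mFc. Birc6 had an adjusted p of 0.0585 and 0.0752 without replicate 1 or 2 of the untreated group and of 0.0812 without replicate 1 of the 60mer group. Bid had 0.126 and 0.107 without replicate 2 or 3 of the untreated group, and 0.176 and 0.116 without replicate 1 or 2 of the 60mer group.

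**Figure D4:**
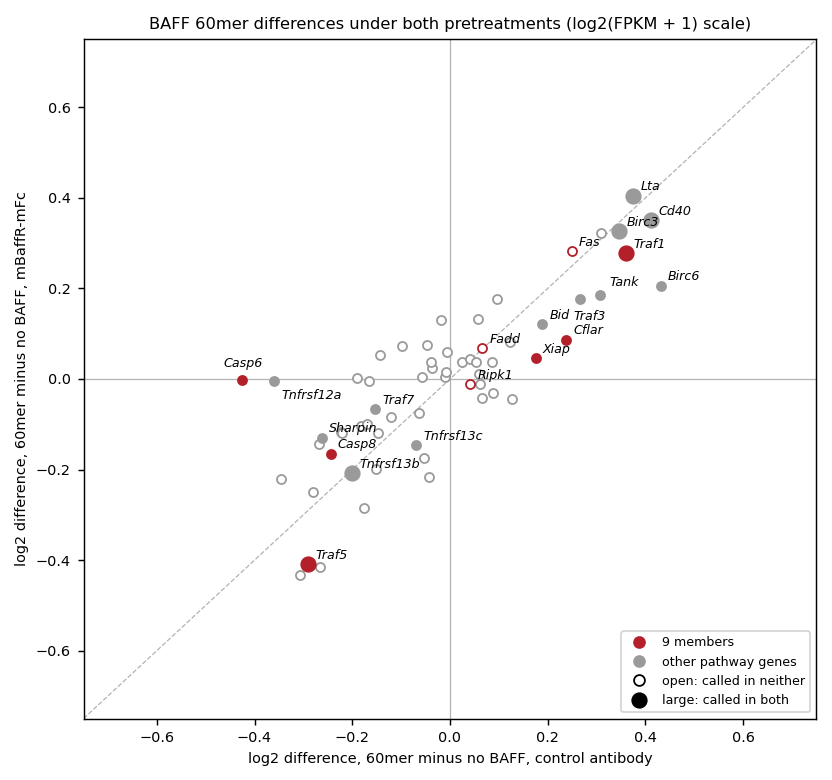
Log2 difference after BAFF 60mer against no BAFF under control antibody (x axis) and under mBaffR-mFc (y axis) for the 9 members (red) and 53 other genes of the pathway (grey); open points passed in neither, large points in both, and the dashed line marks equal differences. Traf1, Birc3, Cd40 and Lta lie high on both axes and Traf5 low on both, while Casp6 lies at -0.43 and 0.00.

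Over the 18 libraries, the level of Traf1 ran most closely with that of Gramd3 (Pearson r = 0.946), Hivep1 (0.944) and Nfkbie (0.929), of log2(FPKM + 1). For Traf5 the closest were Cyp4f18 (0.954), Bcl7a (0.940) and Trp53i11 (0.930), and for Casp8 they were Snx30 (0.947), Arhgap27os3 (0.947) and Ulk3 (0.945). Cflar ran with Ibtk (0.934) and Lrch3 (0.903). The closest genes to Casp6 were less alike, with 0.842 for Emb, 0.805 for Actg1 and 0.799 for Ap4m1. Among the members, Traf1 and Casp8 had r = -0.89, Traf1 and Traf5 -0.80 and Casp8 and Traf5 0.78. These libraries share groups and normalization, so that the correlations mainly restate the group differences and are given without a p.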

How the data were processed

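FPKM of 18 libraries were used as the authors deposited them; per the labels' protocols the RNA was DNase treated and a sequencing company computed the FPKM. The aligner, counting tool, strand setting, build and scaling between libraries are not given in the sources used here. Of 35275 gene IDs, 34490 matched GENCODE M21. Sequences came from RefSeq (GRCm38.p6), which held a window for each of the 9 members.

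Genes averaging 1 FPKM or more (11646) were tested on log2(FPKM + 1), which understates changes of low genes, with limma 3.58.1 in R 4.3.3 (variance trend, 1 residual variance per gene over the 6 groups). The threshold was an adjusted p of 0.05 (Benjamini-Hochberg, all tested genes). There were 9 comparisons of groups, 2 interactions and an F test; their code was checked on simulated data. Library totals were recovered from low FPKM of single-transcript genes, where 88.5 to 89.6% of the values under 500 fragments a library came out whole to within 0.1. A single fragment on 1000 bases was worth 0.0393 to 0.0818 FPKM; intervals cover the spread between libraries.

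The rule for named genes took all 9 members and, of each of 5 pathway lists, up to 3 passing genes that rose most and 3 that fell most, or the 2 most abundant where none passed; for each member passing the F test it took the 3 genes of highest correlation. Of these, 1 gene is not reported here. The members and lists were chosen with earlier results of these data known. Alternatives were a pseudocount of 0.1, no filter on low values or one at a mean of 5 FPKM, scaling by median of ratios, sample weights, only the groups compared, a connective tissue term, voom on recovered fragments, and leaving out each library.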

Additional observations from a re-analysis of the deposited data

How the results depend on the processing

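The labels give the libraries no replicate numbers and state no shared animal or day, so libraries numbered here by order of deposition were not paired and no fit with that number as a block was made. Replicate 3 was the lowest of its group for Traf1 in 6 of 6 groups. Replicate 1 was the highest for Cflar, and replicate 3 for Xiap, in 5 of 6 groups. For the other members no number was highest or lowest in more than 4 groups. Of the other pathway genes Tank, for example, was lowest in replicate 3 of every group. Whether libraries of 1 number share a source was not tested. The standard errors do not take such an order into account, and it enters the residual spread of these genes. With the connective tissue term the number of members that passed went from 6 to 0 for 60mer against no BAFF under control antibody, from 2 to 0 for each 60mer comparison under mBaffR-mFc and from 5 to 1 (Casp6) for the F test; over all genes the first of these went from 1628 to 36 and the F test from 1040 to 70. In these comparisons the term and the BAFF form vary together by construction. The slope of the term rests mainly on the 3mer group under control antibody, the only group in which it varied widely. With only the groups compared, 1 member (Traf5) in place of 2 passed for 60mer against no BAFF under mBaffR-mFc. Leaving out each library gave 4 to 6 members passing for 60mer against no BAFF and 2 to 3 for 60mer against 3mer under control antibody, 2 in each 60mer comparison under mBaffR-mFc, 4 to 5 in the F test and 0 in the other comparisons.

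Over all members, comparisons and alternatives, 1673 values kept their side of the threshold, and 102 of these changed sign without passing. Of the rest, 26 no longer passed, 8 newly passed and 0 reversed. Newly passing beside those in the text were Traf5 for 60mer against 3mer under control antibody (adjusted p = 0.0374), Cflar for the same under mBaffR-mFc (0.0273) and Xiap in the F test (0.0496), all with sample weights, and Xiap for 60mer against no BAFF under control antibody did not pass with only the groups compared (0.0501). Median-of-ratios scaling moved no member's difference by more than 0.0234 (log2), but shifted the share of higher genes among all calls for 60mer against no BAFF under mBaffR-mFc from 30.2% to 42.2%. Sample weights raised the count of genes passing there from 563 to 1386, and only the groups compared lowered it to 142. Single libraries moved the counts over all genes too. The F test count fell from 1040 to 671 without 60mer replicate 1 under control antibody. For 60mer against no BAFF under control antibody, 1628 became 825 and 999 without untreated replicate 1 or 2, and 757 and 982 without 60mer replicate 1 or 2. Against 3mer there, 560 became 318 and 246 without 3mer replicate 1 or 3, and 259 and 353 without 60mer replicate 1 or 2. Under mBaffR-mFc, 563 became 306 and 244 without untreated replicate 2 or 3 and 340 and 321 without 60mer replicate 1 or 2, and against 3mer 601 became 271 and 234 without 3mer replicate 2 or 3 and 343 without 60mer replicate 2. With a minimum mean of 5 FPKM, Fadd was filtered out and has no value. The fragments behind Fas and Fadd, and 3 libraries a group, limit what small differences could be seen.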
